A study of Homo sapiens with 2 samples.

Results

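The ZBTB genes encode transcription factors that pair a BTB domain (also called POZ) with Krüppel-type zinc fingers. They were examined here in a lung tumour line, NCI-H460, established from the pleural effusion of a large cell carcinoma, 24 h after transfection with an siRNA against CYP4F11. Members were taken by name and class alone, as protein-coding rows whose symbol starts with ZBTB and a digit. This gave 42 genes of the 58735 in the table, on 15 chromosomes. One of them, ZBTB8OS, is named for its position opposite ZBTB8A and encodes a tRNA ligase cofactor, not a zinc finger protein. The study holds 1 siCYP4F11 library, labelled as a CYP4F11 knockdown, and 1 siControl library, labelled as wild type and transfected without the CYP4F11 siRNA, with no control sequence named. Both came from the same line, medium, lipid reagent (lipofectamine RNAiMAX) and labelled batch, with poly-A selected, strand-specific RNA. Neither group had a replicate, so no difference below has a replicate check, no test was possible, and each value describes a pair of libraries.

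BTB zinc finger proteins dimerise through the BTB domain, which also recruits corepressor complexes built on NCOR1, BCOR or SIN3A with histone deacetylases. Some BTB proteins also bind the ubiquitin ligase scaffold CUL3. The zinc fingers read DNA, and members of the family are known for reading methylated CpG sites, binding telomere repeats, controlling the cell cycle inhibitor gene CDKN1A and directing lymphoid development. Most act as repressors, although several also activate genes.

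The siCYP4F11 library held 13002179 counts and the siControl library 16207785. Counts were scaled to a common library size by the TMM method and are given as CPM. Each log2 ratio is siCYP4F11 over siControl with 0.5 added to each count, followed in brackets by its 95% interval. The intervals cover counting error alone. PCR copies could not be told from separate molecules, and the spread between cultures was not measured. CYP4F11 itself, the siRNA target, had 972 counts in the siCYP4F11 library and 3180 in siControl, a log2 ratio of -1.40 (-1.51 to -1.30). Its level was 37.8% (35.1% to 40.6%) of the control, so the knockdown was partial. KRT8, KRT18 and KRT19, keratins of epithelial cells, summed to 2902 CPM in siCYP4F11 and 3483 CPM in siControl, while EPCAM was at 8 and 6 counts. The log2 ratios were -0.30 (-0.33 to -0.26) for KRT8, -0.083 (-0.13 to -0.033) for KRT18 and -0.29 (-0.32 to -0.26) for KRT19. Of 5 leukocyte markers 1 was measured, CD14, with 33 counts in the siCYP4F11 library and 20 in siControl. The log2 ratio of CD14 was 1.01 (0.18 to 1.91), from few counts. PTPRC and CD3E had 0 counts in both libraries, as did all 3 endothelial markers, PECAM1, VWF and CDH5. Of fibroblast markers, LUM had 255 counts in the siCYP4F11 library and 209 in siControl, DCN had 36 and 26, COL1A1 had 33 and 34, and COL1A2 had 0 and 4. The log2 ratios were 0.59 (0.32 to 0.86) for LUM, 0.77 (0.0079 to 1.56) for DCN and 0.26 (-0.47 to 0.998) for COL1A1. LUM and DCN were thus higher in the siCYP4F11 library beyond counting error. Over the measured markers, 3 of 4, those of fibroblasts summed to 24.8 CPM in siCYP4F11 and 16.7 CPM in siControl. The part of these markers in the results below was not tested.

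Transcription start windows are shown for members with a single RefSeq start in the promoter table (GRCh38.p14, 250 bases before to 50 after the start). The first 3 have the log2 ratios whose intervals lay furthest below 0 among such members, and ZBTB8A has the highest log2 ratio of the family. Capitals mark CpG dinucleotides, the sites that the methyl-CpG readers of this family recognise when methylated. Each is written 5′ to 3′ on the gene's own strand.
ZBTB39, chr12:57006497-57006796, minus strand: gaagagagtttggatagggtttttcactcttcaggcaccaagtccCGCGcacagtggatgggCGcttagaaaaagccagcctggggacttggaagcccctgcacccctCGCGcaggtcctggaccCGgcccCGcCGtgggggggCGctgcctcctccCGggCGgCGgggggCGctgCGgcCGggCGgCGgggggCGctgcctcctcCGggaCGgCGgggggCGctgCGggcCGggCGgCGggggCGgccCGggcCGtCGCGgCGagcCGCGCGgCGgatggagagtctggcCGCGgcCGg
ZBTB11, chr3:101677083-101677382, minus strand: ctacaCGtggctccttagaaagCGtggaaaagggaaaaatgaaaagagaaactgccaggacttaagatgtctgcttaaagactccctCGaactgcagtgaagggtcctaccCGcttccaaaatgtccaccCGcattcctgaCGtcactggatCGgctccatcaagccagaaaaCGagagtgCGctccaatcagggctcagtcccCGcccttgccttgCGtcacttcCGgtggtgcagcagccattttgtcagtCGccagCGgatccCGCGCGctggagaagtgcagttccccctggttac
ZBTB12, chr6:31902037-31902336, minus strand: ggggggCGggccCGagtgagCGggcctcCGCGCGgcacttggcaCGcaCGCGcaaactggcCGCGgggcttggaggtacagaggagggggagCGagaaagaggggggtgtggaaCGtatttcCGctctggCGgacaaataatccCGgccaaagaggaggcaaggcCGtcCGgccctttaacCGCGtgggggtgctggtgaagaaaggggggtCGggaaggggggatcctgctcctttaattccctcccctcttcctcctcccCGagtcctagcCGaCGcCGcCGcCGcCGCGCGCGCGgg
ZBTB8A, chr1:32539177-32539476, plus strand: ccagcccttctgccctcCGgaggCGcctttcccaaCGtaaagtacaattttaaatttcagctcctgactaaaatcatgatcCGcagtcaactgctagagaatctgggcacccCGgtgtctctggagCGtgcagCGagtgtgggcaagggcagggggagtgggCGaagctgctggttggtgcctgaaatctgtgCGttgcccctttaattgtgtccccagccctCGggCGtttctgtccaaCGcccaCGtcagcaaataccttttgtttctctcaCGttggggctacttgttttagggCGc

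The windows hold 39 CpG sites for ZBTB39, 17 for ZBTB11, 32 for ZBTB12 and 15 for ZBTB8A. RefSeq gave 70 windows for 36 of the 42 members, from 1 window for 22 genes to 10 for ZBTB38. Their median was 21 CpG sites, against 14 over all 35116 windows of the same length. Both strands were searched for 4 motifs. The GC box GGGCGG was in 61.4% of member windows and 45% of all windows, and CCAAT was in 40% and 34.6%. The ETS core CCGGAAG was in 20% and 10.3%, and TCCTGCNA, a motif bound by ZBTB33, in 7.14% and 4.69%. Of the printed windows, those of ZBTB39, ZBTB11 and ZBTB12 hold the GC box, that of ZBTB11 also holds CCAAT and the ETS core, and that of ZBTB8A holds none of the 4 motifs. The Spearman correlation of CpG sites per window with the log2 ratio was 0.045 across 67 windows of measured members, many of which share a gene. Methylation and binding were not measured, so the windows are a description of sequence only.

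Most of the ZBTB family was expressed in these cells, and no measured member differed by as much as 2-fold between the libraries. Of the 42 genes, 38 reached a mean of 1 CPM and are called measured here. None of the 38 was 2-fold higher or lower with an interval that excluded 0, a rule met by 1.96% of all 13942 measured genes, 0.703% higher and 1.26% lower. It was met by 1.27% of measured protein-coding genes, and by 0.136% of genes at or above a mean of 10 CPM, where 29 members lie. Beside shares this small, 0 of 38 is near the background. At 1.5-fold the rule was met by 1 of the 38, ZBTB12, which was lower, against 5.47% of all measured genes, 2.04% higher and 3.44% lower. The share was 4.42% of measured protein-coding genes and 1.56% of genes at or above a mean of 10 CPM. The median log2 ratio was -0.029 over the 38 members, -0.0055 over all measured genes and -0.0037 over measured protein-coding genes. Members ranged from -0.61 for ZBTB49 to 0.47 for ZBTB8A, 23 were below 0 and 15 above, and 35 lay within 1.5-fold. Counts over the 42 genes summed to 17944 in siCYP4F11 and 22917 in siControl, or 0.138% and 0.141% of each library. In bulk RNA, fewer cells expressing a gene and less RNA per cell cannot be told apart.

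Of the small differences beyond counting error, 8 were lower, a share near the background, and 1 was higher. The interval lay wholly below 0 for 8 of the 38 members (21.1%), against 19.2% of all measured and 20.3% of measured protein-coding genes. It lay wholly above 0 for 1 member (2.63%), against 18.6% of all measured and 20.2% of measured protein-coding genes. The remaining 29 intervals included 0, so 9 of 38 members were called in either direction, against 37.8% of all measured genes. Among the 29 members at or above a mean of 10 CPM the counts were 7 below and 1 above, against 23.1% and 23.7% of the genes at that level. The lower share was thus near the background, while the higher share was below it, and a single pair of libraries gives no test of that gap. The gap was not particular to this family: of 391 measured ZNF genes, described below, 20.7% had intervals below 0 and 6.39% above. In genes with a mean CPM of 10 to 30, where 17 members fall, log2 ratios had an SD of 0.27. None of the 38 members lay outside the 5th to 95th percentile of genes in its own CPM class, a range that 10% of genes lie outside by definition. The members' own percentiles went from 6.15 for ZBTB39 to 91.5 for ZBTB41.

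**Figure D1:**
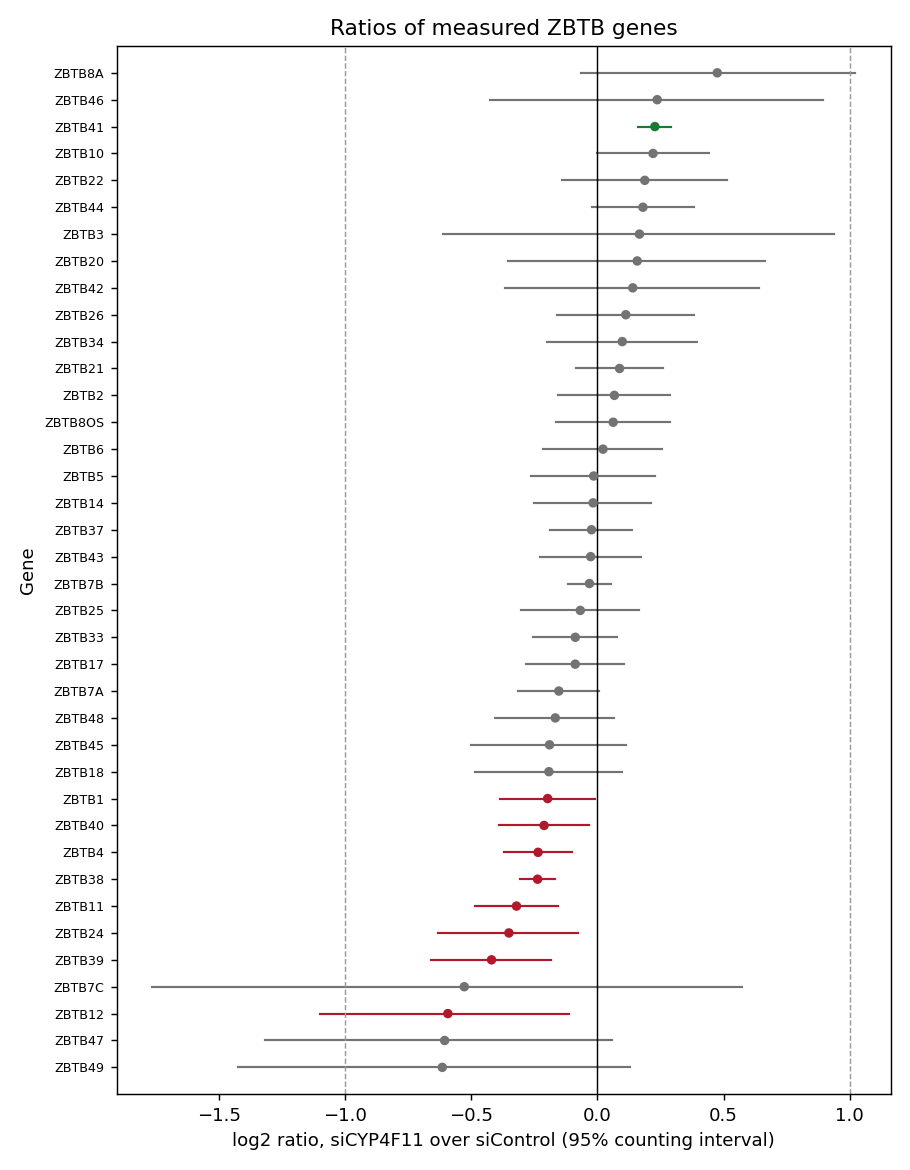
Log2 ratio of siCYP4F11 over siControl for the 38 measured ZBTB genes (points) with 95% counting intervals (lines); dashed lines mark a 2-fold difference. The 8 red genes have intervals below 0, the green gene ZBTB41 lies above 0, and the 29 grey intervals include 0.

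**Figure D2:**
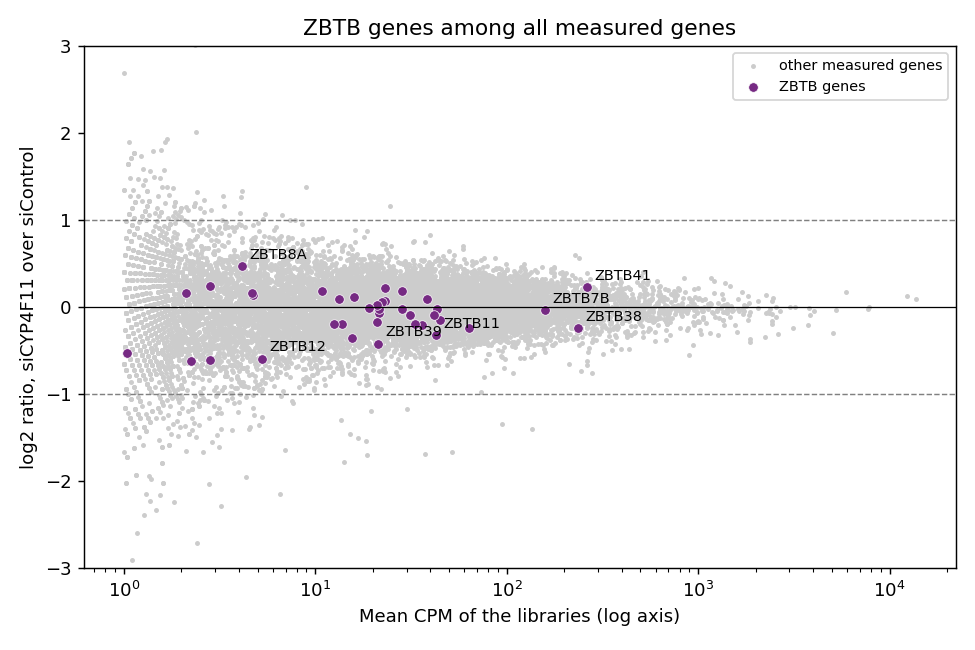
Log2 ratio against the mean CPM of the libraries for all measured genes (grey) and ZBTB genes (purple), with dashed lines at a 2-fold difference; 3 of the measured genes lie beyond the vertical axis. No ZBTB gene reaches a dashed line, and the ratios of all genes narrow as the level increases.

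Levels between genes were compared per length, as CPM per kilobase of gene model. The 3 most abundant members stood apart from the rest in both libraries. ZBTB7B, a zinc finger repressor known from mice as the master regulator of CD4 T cell fate, led with 36.5 in siCYP4F11 and 37.3 in siControl. ZBTB41 followed with 33.2 in siCYP4F11 and 28.3 in siControl. ZBTB38, a reader of methylated CpG sites, had 15.2 in siCYP4F11 and 18 in siControl. In both libraries the intervals of these genes and of ZBTB4, the next in order, did not overlap. Together ZBTB41, ZBTB38 and ZBTB7B held 47.9% of the family's counts in siCYP4F11 and 46.4% in siControl.

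Below ZBTB4 the order was less certain. ZBTB2, ZBTB33, ZBTB7A and ZBTB17 were at 7.68, 7.61, 7.45 and 7.12 in siCYP4F11 and at 7.34, 8.09, 8.29 and 7.57 in siControl, with neighbouring intervals that overlapped. Of the 37 neighbouring pairs in the order of levels, 31 in siCYP4F11 and 30 in siControl had overlapping intervals. The median of the 38 genes was 3.59 in siCYP4F11 and 3.94 in siControl. At the low end ZBTB20 had 0.154 in siCYP4F11 and 0.138 in siControl and ZBTB7C 0.11 in siCYP4F11 and 0.162 in siControl. The gene model of ZBTB20 is long and 46.7% of its 50-base words are shared with other genes, so its level per length is less certain. The gene that shares the most of these words is AC093010.3, listed at 0.

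**Figure D3:**
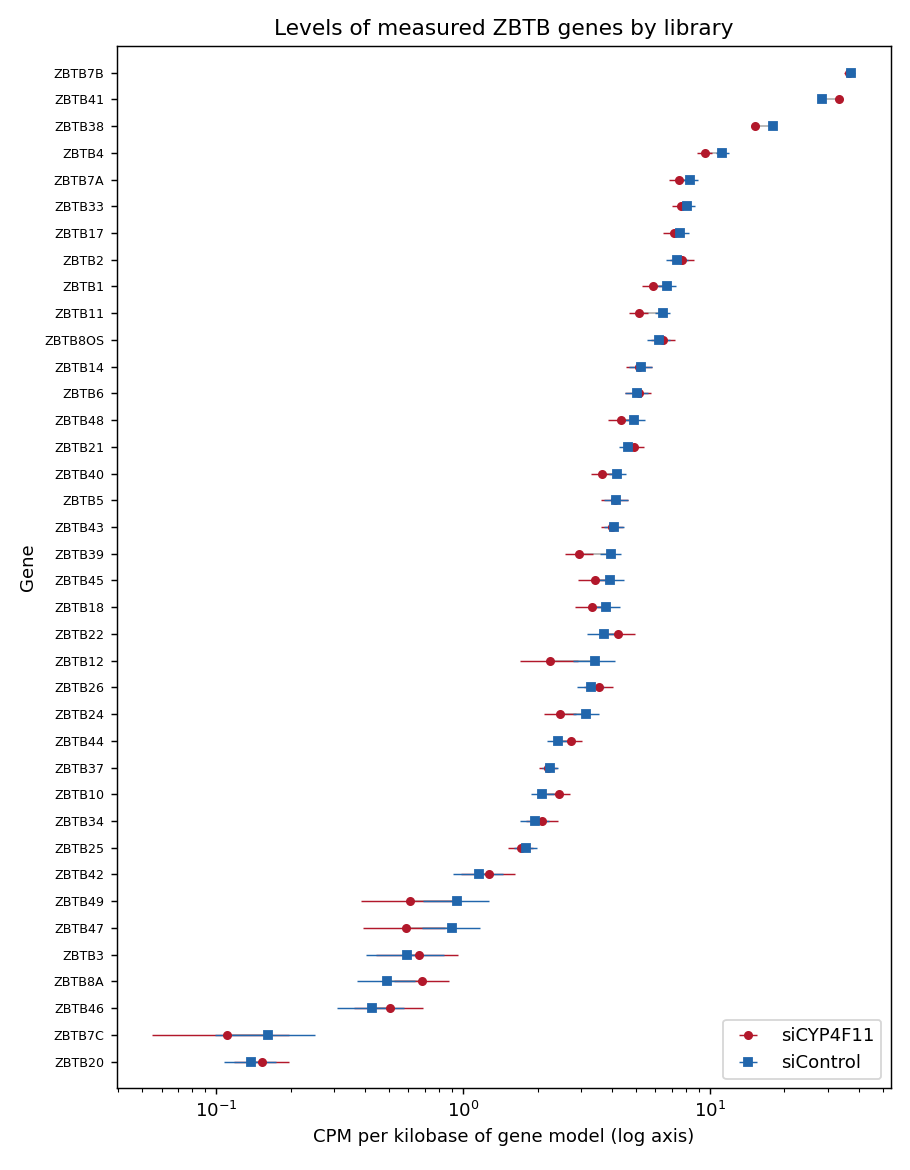
Level of each measured ZBTB gene in CPM per kilobase of gene model (log axis) in the siCYP4F11 library (red circles) and the siControl library (blue squares), with 95% counting intervals. ZBTB7B, ZBTB41 and ZBTB38 lead in both libraries, and for most genes the intervals of the libraries overlap.

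Of the members that read CpG sites, the abundant ones were slightly lower in the siCYP4F11 library. ZBTB38 (ENSG00000177311, chromosome 3 from 141324213 to 141449792, plus strand; GRCh38) binds methylated CpG sites and is known as a repressor. It had 2834 counts in the siCYP4F11 library and 4131 in siControl, which is 217 CPM in siCYP4F11 and 256 CPM in siControl. The log2 ratio was -0.24 (-0.31 to -0.17), a level 84.8% (80.8% to 89%) of the control. ZBTB38 was thus lower in the siCYP4F11 library by more than counting error, though by far less than 1.5-fold. ZBTB4 (ENSG00000174282, chromosome 17 from 7459366 to 7484263, minus strand), a related methyl-CpG binder, had 761 counts in the siCYP4F11 library and 1108 in siControl, a log2 ratio of -0.24 (-0.37 to -0.10). ZBTB33, known as Kaiso, which binds both methylated CpG and an unmethylated motif, had 528 counts in the siCYP4F11 library and 694 in siControl, at -0.088 (-0.25 to 0.077). ZBTB2, reported to bind unmethylated CpG-rich regions in mouse cells, had 310 counts in the siCYP4F11 library and 366 in siControl, at 0.067 (-0.16 to 0.29). The siCYP4F11 library was thus lower beyond counting error for ZBTB38 and ZBTB4, and not separated from siControl for ZBTB33 and ZBTB2. That is 2 of 4 members (50%), against 19.2% of all measured genes, and 4 genes are too few to read as a group result. With the GC correction described below, the interval of ZBTB33 also lay below 0, at -0.22 (-0.38 to -0.052).

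Neither telomere binder was separated from siControl beyond counting error. ZBTB48, also called TZAP, binds telomere repeats and limits telomere length. It had 257 counts in the siCYP4F11 library and 357 in siControl, a log2 ratio of -0.17 (-0.40 to 0.068). ZBTB10, which binds variant telomere repeats and is also described as a repressor of SP1 in cancer cells, had 325 counts in the siCYP4F11 library and 345 in siControl, at 0.22 (-0.0029 to 0.44). ZBTB10 was the member nearest to a second call on the higher side: with total counts, DESeq2 size factors or upper-quartile scaling its interval lay above 0. With the GC correction described below it was at 0.13 (-0.098 to 0.35), an interval that included 0.

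Of 6 members linked to CDKN1A and the p53 axis, 1 had an interval below 0, ZBTB4 as given above, a share of 16.7% against 19.2% of all measured genes. The ratio was below 0 for 5 of the 6, against 50.8% of all measured genes, and with the GC correction described below ZBTB17 was above 0, at 0.041. ZBTB17, known as MIZ1, activates CDKN1A unless MYC binds it, and had 394 counts in the siCYP4F11 library and 518 in siControl, a log2 ratio of -0.088 (-0.28 to 0.10). The libraries were close for this gene. ZBTB5, a repressor of CDKN1A, had 248 counts in the siCYP4F11 library and 310 in siControl, at -0.015 (-0.26 to 0.23). ZBTB7A, also called LRF, is a repressor known for silencing fetal globin genes and for opposing ARF, and had 557 counts in the siCYP4F11 library and 766 in siControl, at -0.15 (-0.31 to 0.006). ZBTB49, an activator of CDKN1A, had the lowest ratio of the family at -0.61 (-1.42 to 0.13), but from only 23 counts in siCYP4F11 and 44 in siControl. ZBTB2, which also represses CDKN1A, is given above.

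CDKN1A had 1270 counts in the siCYP4F11 library and 1171 in siControl, at 0.42 (0.31 to 0.54). MYC, the partner of ZBTB17, had 5954 counts in the siCYP4F11 library and 9373 in siControl, at -0.35 (-0.40 to -0.30), and was named after its value was seen. A link between the values of CDKN1A, MYC and ZBTB17 was not tested.

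The members known from blood cell development were present at very different levels. ZBTB7B (ENSG00000160685, chromosome 1 from 155002630 to 155018522, plus strand) had 2049 counts in the siCYP4F11 library and 2590 in siControl, which is 157 CPM in siCYP4F11 and 160.4 CPM in siControl, at a log2 ratio of -0.032 (-0.12 to 0.052). Its values were the closest match between the libraries among the 3 most abundant members. ZBTB1, needed for lymphoid development in mice, had 404 counts in the siCYP4F11 library and 573 in siControl, at -0.20 (-0.39 to -0.012). The interval of ZBTB1 ended just below 0. ZBTB25, which lies head to head with ZBTB1, had 273 counts in the siCYP4F11 library and 354 in siControl, at -0.068 (-0.30 to 0.16). The gene models of this pair overlap on opposite strands, over 11.4% of the exon bases of ZBTB1, and the strand setting of the counting is unknown.

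Other blood-cell members had low counts, and ZBTB32 and ZBTB16 were not measured. ZBTB46, a marker of classical dendritic cells, had 40 counts in the siCYP4F11 library and 42 in siControl, at 0.24 (-0.43 to 0.90). ZBTB20, a regulator of plasma cells and of the hippocampus in mice, had 64 counts in the siCYP4F11 library and 71 in siControl, at 0.16 (-0.35 to 0.66). ZBTB32, expressed in lymphocytes, was below a mean CPM of 1 with 8 counts in the siCYP4F11 library and 13 in siControl. ZBTB16, known as PLZF and fused to RARA in some leukaemias, had 0 counts in siCYP4F11 and 1 in siControl. Since PTPRC and CD3E were at 0 in both libraries, the ZBTB7B counts stood in samples without reads from these leukocyte genes, although CD14 had reads in both.

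Of 5 members in which inherited variants cause disease, ZBTB11 and ZBTB24 were lower in the siCYP4F11 library beyond counting error. That is a share of 40%, against 19.2% of all measured genes, and 5 genes are too few to read as a group result. ZBTB20, also in this group, is given above. ZBTB11 (ENSG00000066422, chromosome 3 from 101648889 to 101677495, minus strand), linked to intellectual disability and to mitochondrial gene control, had 499 counts in the siCYP4F11 library and 771 in siControl. This was 38.2 CPM in siCYP4F11 and 47.8 CPM in siControl, a log2 ratio of -0.32 (-0.49 to -0.16). Its exons overlap those of the antisense gene ZBTB11-AS1 over 12.0% of their bases, and that gene had 13 counts in each library. ZBTB24 (ENSG00000112365, chromosome 6 from 109462594 to 109483237, minus strand), mutated in a form of the immunodeficiency, centromeric instability and facial anomalies syndrome, had 178 counts in the siCYP4F11 library and 281 in siControl, at -0.35 (-0.63 to -0.076). ZBTB11 and ZBTB24 were lower by a similar ratio. CDCA7, whose expression depends on ZBTB24, had 1115 counts in the siCYP4F11 library and 1500 in siControl, at -0.12 (-0.23 to -0.0088), and was named after its value was seen. With total counts the interval of CDCA7 included 0, and with the GC correction CDCA7 was at -0.21. A link between the values of CDCA7 and ZBTB24 was not tested. ZBTB18, a repressor of neuronal development, had 169 counts in the siCYP4F11 library and 239 in siControl, at -0.19 (-0.49 to 0.10). ZBTB42, linked to a congenital contracture syndrome, had 65 counts in the siCYP4F11 library and 73 in siControl, at 0.14 (-0.37 to 0.64).

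Outside these role groups, the lower side held 3 further genes with intervals below 0, ZBTB39, ZBTB12 and ZBTB40. With the GC correction ZBTB12 at -0.46 and ZBTB40 at -0.17 had intervals that included 0. ZBTB39 (ENSG00000166860, chromosome 12 from 56998834 to 57006446, minus strand) had 238 counts in the siCYP4F11 library and 394 in siControl, which is 18.2 CPM in siCYP4F11 and 24.4 CPM in siControl. At -0.42 (-0.66 to -0.19), or 74.8% (63.3% to 88%) of the control, it had the lowest log2 ratio of the 29 members at or above a mean of 10 CPM. ZBTB12 had fewer counts, a lower ratio and a wider interval. ZBTB12 (ENSG00000204366, chromosome 6 from 31899607 to 31901992, minus strand) had 55 counts in the siCYP4F11 library and 103 in siControl, at -0.59 (-1.10 to -0.11). ZBTB40, which lies at a locus associated with bone density, had 435 counts in the siCYP4F11 library and 623 in siControl, at -0.21 (-0.39 to -0.033). ZBTB47 and ZBTB7C had ratios of similar size from few counts, 29 and 11 in siCYP4F11 against 55 and 20 in siControl. Their log2 ratios were -0.61 (-1.32 to 0.057) and -0.53 (-1.76 to 0.57), so they were not separated from 0.

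On the higher side, ZBTB41 was the only member with an interval above 0 under TMM scaling. ZBTB41 (ENSG00000177888, chromosome 1 from 197153680 to 197200542, minus strand) had 3706 counts in the siCYP4F11 library and 3914 in siControl, which is 284 CPM in siCYP4F11 and 242 CPM in siControl. The log2 ratio was 0.23 (0.16 to 0.29), a level 117% (112% to 122%) of the control. ZBTB41 and ZBTB38, with about the same level in CPM, thus differed from siControl in opposite directions. After subtraction of the GC trend described below, the interval of ZBTB41 included 0, at 0.023, while ZBTB38 was at -0.32. ZBTB8A had the highest ratio, 0.47 (-0.066 to 1.02), from 63 counts in the siCYP4F11 library and 56 in siControl. It shares 26.9% of its 50-base words with other genes, the most with AL033529.1, a gene listed at 0. ZBTB22 had 151 counts in the siCYP4F11 library and 164 in siControl, at 0.19 (-0.14 to 0.51), and ZBTB44 had 394 counts in the siCYP4F11 library and 430 in siControl, at 0.18 (-0.021 to 0.38). Intervals of these 3 genes included 0. ZBTB8OS, the member without zinc fingers, had 298 counts in the siCYP4F11 library and 353 in siControl, at 0.062 (-0.17 to 0.29), and its gene overlaps that of ZBTB8A on the other strand.

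The other measured members were ZBTB3, ZBTB6, ZBTB14, ZBTB21, ZBTB26, ZBTB34, ZBTB37, ZBTB43 and ZBTB45, and all their intervals included 0. Their log2 ratios went from -0.19 for ZBTB45 to 0.17 for ZBTB3. In counts they ran from 29 in siCYP4F11 and 32 in siControl for ZBTB3 to 560 and 704 for ZBTB37. The gene model of ZBTB37 overlaps that of the abundant non-coding gene GAS5 on the opposite strand, but no exon bases are shared in GENCODE release 29. ZBTB14, known as ZF5, had 278 counts in the siCYP4F11 library and 348 in siControl, at -0.017 (-0.25 to 0.21).

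The remaining members, ZBTB8B and ZBTB9, had 0 counts in both libraries, which allows up to 0.283 CPM in siCYP4F11 and 0.229 CPM in siControl as the upper ends of the 95% counting intervals. The count of ZBTB9 cannot be read as its level. In the annotation 99.8% of its exon bases overlap other genes. ZBTB8B shares 13.8% of its words with other genes, the most with AL033529.1.

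Members that lie next to each other were compared in position. ZBTB6 and ZBTB26 lie 2235 bases apart on the minus strand of chromosome 9, with log2 ratios of 0.022 and 0.11. ZBTB43 and ZBTB34 lie 22454 bases apart on the plus strand of the same chromosome, at -0.027 and 0.10. All 4 intervals included 0, so neither pair held a member that differed beyond counting error.

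Transcript GC content, which moved with the log2 ratio over the whole table, was also negatively correlated with it across the family. Across the 38 members the Spearman correlation of GC content with the log2 ratio was -0.32 and Pearson's r was -0.32, and across 12058 measured protein-coding genes the Spearman correlation was -0.35. The points share the same pair of libraries, so these are descriptions. The 21 members with at most 45% GC had a median log2 ratio of 0.022, against 0.091 for the 4770 protein-coding genes in that range. The 6 members between 45% and 55% GC had the lowest median, -0.32, so the medians did not fall steadily with GC content. The 11 members above 55% GC had a median of -0.15, against -0.12 for 3440 genes. ZBTB41 had the lowest GC content of the family, 32.5%, and stood at 0.023 (-0.042 to 0.088) once the trend was subtracted. ZBTB38, at 40.9% GC, stood further below 0 after subtraction, at -0.32. ZBTB7B, at 63.6%, stood at 0.10 with an interval of 0.018 to 0.19, and ZBTB33, at 37.4%, at -0.22. Of the 8 members with intervals below 0, 6 kept them after subtraction, while ZBTB12 and ZBTB40 did not and ZBTB33 was added. ZBTB41 no longer had an interval above 0, and ZBTB7B took its place. The share of all measured genes called after subtraction is not given, so these counts have no background beside them. The part of GC content in the differences was not tested.

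**Figure D4:**
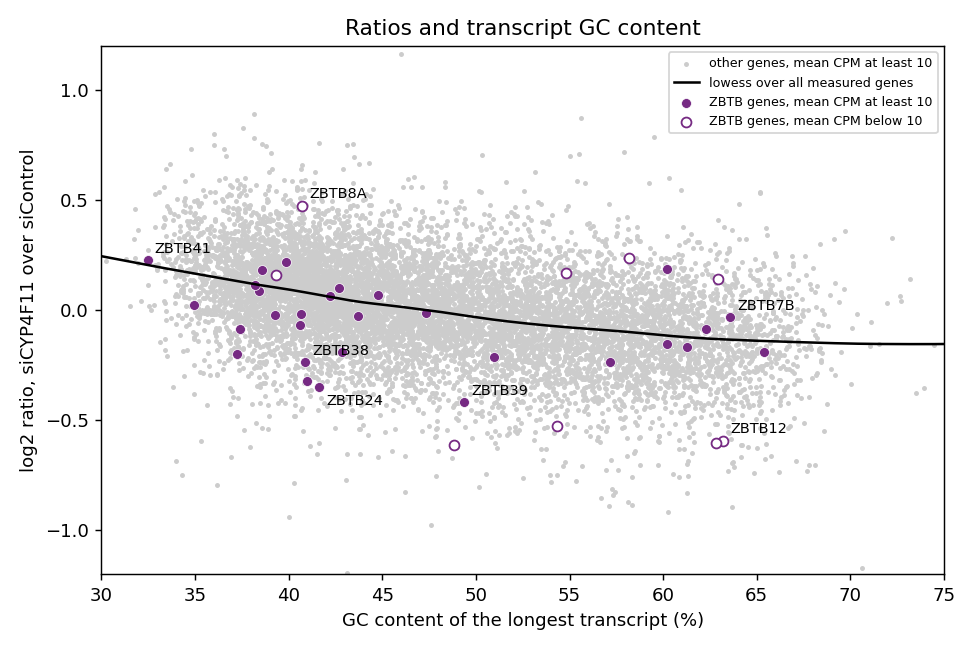
Log2 ratio against the GC content of the longest transcript for ZBTB genes (purple; open circles have a mean CPM below 10) and other genes at or above 10 CPM (grey; 10 genes lie beyond the axes). The black lowess line over all measured genes slopes downward, ZBTB41 lies at its upper left end, and ZBTB38, ZBTB24 and ZBTB39 lie below it.

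BTB zinc finger genes that carry other symbols were given by a list of 8, of which 7 were measured. Their median log2 ratio was -0.048, against -0.029 for the ZBTB genes and -0.0055 for all measured genes. By interval, 3 of the 7 were lower and 1 was higher, against 19.2% and 18.6% of all measured genes. HIC1, a tumour suppressor repressor, passed the 2-fold rule with 8 counts in the siCYP4F11 library and 23 in siControl, at -1.16 (-2.59 to -0.0057), a difference that rests on few reads. The interval of HIC1 ended so near 0 that it included 0 with total counts or with the GC correction. With the GC correction HIC1 was at -1.03, so its place among the lower genes depends on the processing. PATZ1 was at -0.26 (-0.43 to -0.083) and GZF1 at -0.27 (-0.47 to -0.08), while ZNF131 was at 0.25 (0.11 to 0.38). These 3 were named after their values were seen. BCL6, the germinal centre repressor, was at -0.048 (-0.32 to 0.22) and was also named after its value was seen. The deposited table's own transcription factor column marks 35 of the 42 members as ZBTB and leaves 7 blank, among them ZBTB33 and ZBTB10. It marks 9 other genes the same way, which include all 8 on the list.

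Corepressors and partners of BTB proteins were measured for 20 of 20 listed genes, with a median log2 ratio of -0.057, 13 below 0 and 7 above. None passed the 1.5-fold rule, against 5.47% of all measured genes. By interval 5 (25%) lay below 0 and 2 (10%) above, against 19.2% and 18.6% of all measured genes. GPS2, a subunit of the NCOR1 corepressor complex, had 61 counts in the siCYP4F11 library and 112 in siControl, at -0.56 (-1.04 to -0.11), and shares 37.6% of its 50-base words with other genes. NCOR1 was at -0.15 (-0.24 to -0.069) and BCOR at -0.089 (-0.22 to 0.045). CUL3 was at 0.079 (-0.08 to 0.24), and these last 3 were named after their values were seen.

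Reported targets of ZBTB proteins were measured for 10 of 17 listed genes, with a median log2 ratio of -0.039, 5 below 0 and 5 above. By interval 4 of the 10 were lower and 2 higher, against 19.2% and 18.6% of all measured genes, and none passed the 1.5-fold rule, against 5.47%. CDKN1A, given above, had the largest ratio in size. SLC2A3, a glucose transporter gene repressed by ZBTB7A, had 3466 counts in the siCYP4F11 library and 5129 in siControl, at -0.26 (-0.32 to -0.20), and shares 16% of its 50-base words with other genes.

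Families that share the zinc fingers or the BTB domain gave a frame for the ZBTB values. Of 391 measured ZNF genes, which have zinc fingers and mostly no BTB domain, the median log2 ratio was -0.12, with 20.7% of intervals below 0 and 6.39% above. The 27 measured KLHL genes, which have a BTB domain and no zinc fingers, had a median of 0.12, with 11.1% below and 18.5% above. The 17 KCTD genes had a median of -0.11, with 23.5% of intervals below 0 and 23.5% above, and the 9 BTBD genes a median of 0.080, with 22.2% below and 11.1% above. Whether the families differ from each other was not tested.

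**Figure D5:**
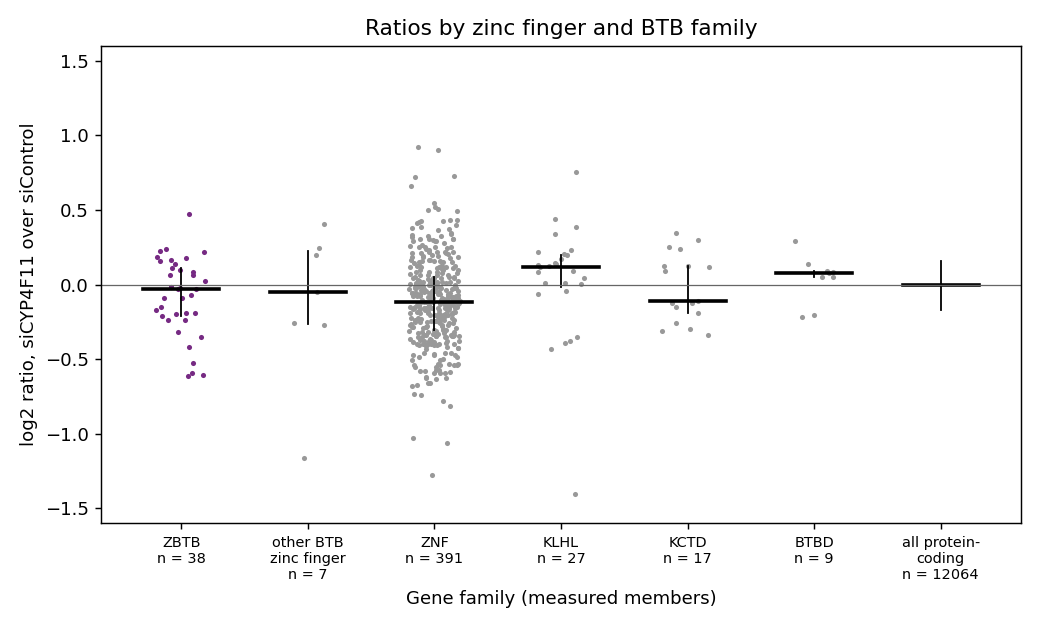
Log2 ratio of siCYP4F11 over siControl for measured members of the ZBTB family, the BTB zinc finger genes of other names, 4 related families and all protein-coding genes (points jittered sideways, none drawn for the last group). Thick lines are medians and thin lines the middle 50% of the genes; 1 ZNF gene lies beyond the axis, and the ZBTB median of -0.029 lies between those of the ZNF (-0.12) and KLHL (0.12) genes.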

How the data were processed

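The authors deposited 1 table of whole-number read counts per gene for both libraries, not normalised, with gene model lengths in bases. Per the submitters' processing notes the tools were featureCounts 2.0.6, HISAT2 2.2.1, fastp and edgeR 4.0.16, and the build was GRCh38. What each did, its parameters and the strand setting are not given in the sources used here, so reads of overlapping genes may have been shared. The series design text spells the cell line's name differently, and the sample labels were followed.

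TMM factors came from edgeR 4.0.16 under R 4.3.3. No count model was run, since each group had 1 library. Intervals are the exact Clopper-Pearson intervals of the siCYP4F11 share of both counts, turned into log2 ratios, and Poisson intervals for levels. A floor of 3 counts was 0.230 CPM in siCYP4F11 and 0.186 CPM in siControl. GC content and shared 50-base words came from GENCODE 29 transcripts, exon overlap from its annotation, and the GC trend from a lowess with a span of 0.3 (statsmodels 0.14.6). The scipy 1.17.1, pandas 2.3.3 and numpy 2.4.6 libraries were used under Python 3.11.15. The ratio and interval code was tested on simulated counts. Alternatives were other scalings (total counts, DESeq2 1.42.0 size factors, upper quartile), 2 added to each count, other filters and thresholds, and leaving out members.

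Members, lists and rules were chosen with earlier results of these data known. Named with values were the members of role groups, the 6 highest and 6 lowest log2 ratios, the 6 highest levels per length, and list members past 1.5-fold, or else the 2 largest ratios. A gene that this rule names is not reported here. Protein features were not analysed here.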

Additional observations from a re-analysis of the deposited data

How the results depend on the processing

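CYP4F11 stayed lower under each scaling, added count and the GC correction, from -1.40 to -1.34 in log2 ratio. The count of members past 2-fold was 0 in either direction under each scaling, filter, added count, left-out group and the GC correction. A 1.5-fold threshold gave 1 lower member, and any size with an interval excluding 0 gave 8 lower and 1 higher, which follows from the laxer rules. The count of members with an interval above 0 was 2 with total counts, DESeq2 size factors or upper-quartile library sizes, where ZBTB10 joined ZBTB41. The median over members stayed below 0 in each setting, from -0.077 as a mean to -0.018 with total counts, and was -0.047 with the GC correction. The companion list medians also stayed below 0. The GC correction moved ZBTB38 (-0.32), ZBTB41 (0.023) and ZBTB7B (0.10) beyond their counting intervals and changed the sign of 5 members, none of which had an interval excluding 0 before it. No paired analysis was possible because each group had 1 library. For the same reason no library could be left out. The minimum mean CPM of 10 and the exclusion of members with over 10% exon overlap were chosen after seeing the data, and gave 7 and 6 lower and 1 and 1 higher by interval. Depth limited the 9 members with a mean CPM below 10, of which 8 had intervals that included 0.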

Other observations

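The table also holds 13 rows that carry a ZBTB symbol and are not protein-coding, most of them antisense RNAs and processed pseudogenes. ZBTB11-AS1, on the strand opposite ZBTB11, had 13 counts in siCYP4F11 and 13 in siControl. ZBTB45P2 had 4 and 4, ZBTB12BP had 3 and 4, ZBTB40-IT1 had 3 and 0, and ZBTB20-AS1 had 0 and 3. The other 8 rows had 0 counts in both libraries. ZBTB12 shares 3.72% of its 50-base words with other genes, the most with ZBTB12BP.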
